A study of Mus musculus with 6 samples.

Results

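The genes described here are 8 cytochrome P450 genes of the mouse airway, Cyp2f2, Cyp2a5, Cyp4b1, Cyp2s1, Cyp2b10, Cyp2j6, Cyp1a1 and Cyp1b1, together with Por, which encodes the reductase that all microsomal P450 enzymes share. They were taken by gene symbol, and all 9 were found among the 48577 genes of the count files. The measurement was RNA sequencing of lung epithelial cells from Miwi2tdTomato mice of the C57BL/6 strain, in which the red fluorescent protein tdTomato reports Piwil4, the gene of the Piwi protein MIWI2. Dissociated lung was sorted for cells without CD45, a leukocyte surface protein, and with EpCAM, an epithelial surface protein. The tdTomato-positive and tdTomato-negative fractions of each of 3 mice gave 3 libraries per group, so each mouse contributed a pair. Every animal carried the reporter in both fractions, and the ages and sexes of the animals are not given in the sources used here. The labels call both fractions multiciliated cells, but name no gate for cilia, and Piwil4 RNA was present in both: it averaged 103 ± 7.92 CPM in tdTomato-positive and 39.9 ± 8.62 CPM in tdTomato-negative libraries (SD, n = 3 each; CPM, the count scaled to library size, here with TMM factors). The tdTomato row held 37, 16 and 18 reads in the tdTomato-positive libraries of mice 1, 2 and 3 and no read in the tdTomato-negative ones.

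Cytochrome P450 enzymes are heme proteins of the endoplasmic reticulum that insert an oxygen atom into fatty acids, steroids and inhaled chemicals. They take their electrons from NADPH through the reductase encoded by Por. In the mouse airway these enzymes are best known from club cells, the secretory cells of the bronchioles. There Cyp2f2 turns naphthalene into an epoxide that kills the cell, and Cyp4b1 activates furan toxins. Cyp1a1 and Cyp1b1 are classic targets of the aryl hydrocarbon receptor, which senses combustion products and dioxins.

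Of the 9 genes, 4 lie in a single cluster of P450 genes on chromosome 7 (GRCm38), which spans 1356 kb from Cyp2s1 to Cyp2t4 and holds 16 genes and pseudogenes of the family. The coordinates are Cyp2s1 at chr7:25802475-25816913 on the minus strand, and Cyp2b10 at chr7:25897620-25926624, Cyp2a5 at chr7:26835305-26843548 and Cyp2f2 at chr7:27119909-27133660 on the plus strand. Cyp2j6 (chr4:96516138-96553661) and Cyp4b1 (chr4:115624725-115647723) are on the minus strand of chromosome 4. Cyp1a1 is on chromosome 9 (chr9:57687928-57703824, plus strand), Cyp1b1 on chromosome 17 (chr17:79701537-79715061, minus strand) and Por on chromosome 5 (chr5:135670033-135735326, plus strand).

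The stretches upstream of 5 of the genes are shown. Cyp2f2 and Cyp2a5 were the genes called with the mouse as a block, Cyp2b10 was the steadiest, and Cyp1a1 and Cyp1b1 were the scarce targets of the aryl hydrocarbon receptor. Each runs from base 120 to base 36 before the RefSeq transcription start (GRCm38.p6), on the gene's own strand. Capitals mark TTGCATAA, a variant of the sequence bound by C/EBP factors, and GCGTG or its reverse complement CACGC, the core that the aryl hydrocarbon receptor binds.
Cyp2f2, chr7:27119835-27119919, plus strand: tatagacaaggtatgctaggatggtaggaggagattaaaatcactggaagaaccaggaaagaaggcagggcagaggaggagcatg
Cyp2a5, chr7:26835219-26835303, plus strand: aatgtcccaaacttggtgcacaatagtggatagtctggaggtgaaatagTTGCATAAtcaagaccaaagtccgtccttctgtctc
Cyp2b10, chr7:25897538-25897622, plus strand: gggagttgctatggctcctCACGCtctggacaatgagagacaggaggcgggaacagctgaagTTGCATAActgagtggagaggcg
Cyp1a1, chr9:57697493-57697577, plus strand: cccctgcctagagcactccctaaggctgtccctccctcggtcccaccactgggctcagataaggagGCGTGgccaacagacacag
Cyp1b1, chr17:79715097-79715181, minus strand: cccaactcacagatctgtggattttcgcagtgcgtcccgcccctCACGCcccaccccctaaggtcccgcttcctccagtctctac
Both strands of the full 300-base windows, which run from 250 bases before to 50 after the start, were searched, and the motifs were chosen after these sequences had been read. TTGCATAA began 71 bases before the start of Cyp2a5 and 58 before that of Cyp2b10, and 0.743% of all 32851 promoter windows held it. GCGTG was found in the windows of Cyp1a1, Cyp1b1, Cyp2b10 and Por, and in 32.4% of all windows. TATAAA, the TATA box, stood 29 bases before the start of Cyp2a5 and 30 before that of Cyp1a1, against 13.6% of all windows. These matches describe letters in a window and were not tested for function.

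Reads of Cyp2a5 are the ones most exposed to a near-identical copy. Its coding sequence differs from that of Cyp2a4, a steroid hydroxylase gene of the same cluster, at 23 of 1482 bases (98.4% identity), and 38.6% of its transcript words of 50 bases also occur in another gene. The 60-base stretch within an exon that separates them best, coding bases 197 to 256 on the plus strand, holds 3 differences, in capitals.
Cyp2a5, chr7:26835811-26835870: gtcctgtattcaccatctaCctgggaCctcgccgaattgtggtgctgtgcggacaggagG
Cyp2a4, chr7:26307666-26307725: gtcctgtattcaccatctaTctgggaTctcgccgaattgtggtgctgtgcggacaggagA
Reads that match both genes alike have no gene of their own in these files, so the level of Cyp2a5 may be understated. Cyp2a4 itself had 24, 0 and 2 reads in the tdTomato-positive libraries of mice 1, 2 and 3, against 2, 2 and 5 in the tdTomato-negative ones, far fewer than the Cyp2a5 counts given below. For the other 8 genes the share of shared words was 0% to 9.84%, the highest being Cyp4b1, which has pseudogenes.

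Total counts in genes were 5330584 to 6326395 per library, and no read in a library leaves room for up to 0.475 to 0.585 CPM, the level of 3 counts. All P450 genes together, 101 rows, held 44759, 43510 and 30678 reads in the tdTomato-positive libraries of mice 1, 2 and 3, against 30077, 21604 and 19974 reads in the tdTomato-negative ones. That was 0.698% ± 0.136 of the counts in genes in tdTomato-positive and 0.424% ± 0.122 in tdTomato-negative libraries (SD, n = 3 each). These shares carry no TMM factors, with which the sums lay closer together, at 6438 ± 1398 and 4627 ± 1054 CPM (SD, n = 3 each). In each mouse the tdTomato-positive library held the larger share, and the highest tdTomato-negative share, 0.564% in mouse 1, lay above the lowest tdTomato-positive one, 0.541% in mouse 3. The 8 P450 genes described here made up 96.4% ± 0.852 of the P450 reads in tdTomato-positive and 94.5% ± 1.28 in tdTomato-negative libraries (SD, n = 3 each).

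Airway P450 transcripts were among the abundant RNAs of both fractions, led by Cyp2f2, Cyp2s1 and Cyp2b10. Without a term for the mouse, which leaves the pairing of the libraries aside, none of the 8 genes tested passed across all genes. Of these 8, however, 7 had a higher estimate in tdTomato-positive cells, as did 52.7% of all genes tested. With the mouse as a block, which compares the fractions within each animal, Cyp2a5 and Cyp2f2 rose, 2.85-fold and 1.76-fold. Cyp2b10 had almost the same level everywhere, and Cyp1a1 was at 1 read in all 6 libraries together.

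The test was edgeR's quasi-likelihood test on the counts, and genes with a Benjamini-Hochberg adjusted p under 0.05 over the 13175 genes tested were called. It called 0 of the 8 members tested, where the background was 0.0455% of genes called higher and 0.622% called in either direction. At an unadjusted p under 0.05 it held 2 of the 8, Cyp2a5 and Por, against 10.7% of all genes. DESeq2 called 1 of the 8, Cyp2a5, which was higher, where it called 0.425% of all genes higher and 1.86% in either direction. With the mouse as a block, edgeR called 2 of 8, both higher, where it called 1.36% of all genes higher and 3.15% in either direction. The blocked fit held 5 of the 8 at an unadjusted p under 0.05, against 15.9% of all genes. The median log2 fold change of the 8 was 0.48, and 0.51 with the block, against 0.03 and 0.00055 over all genes tested. Cyp1a1 did not pass the filter on low counts, so these counts cover 8 of the 9. Without the block the p-values measure the spread among the 3 libraries within each group, with differences between animals left in. With the block they measure the spread of the differences within these 3 animals. In bulk samples fewer cells of a type and less RNA per cell cannot be told apart.

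**Figure D1:**
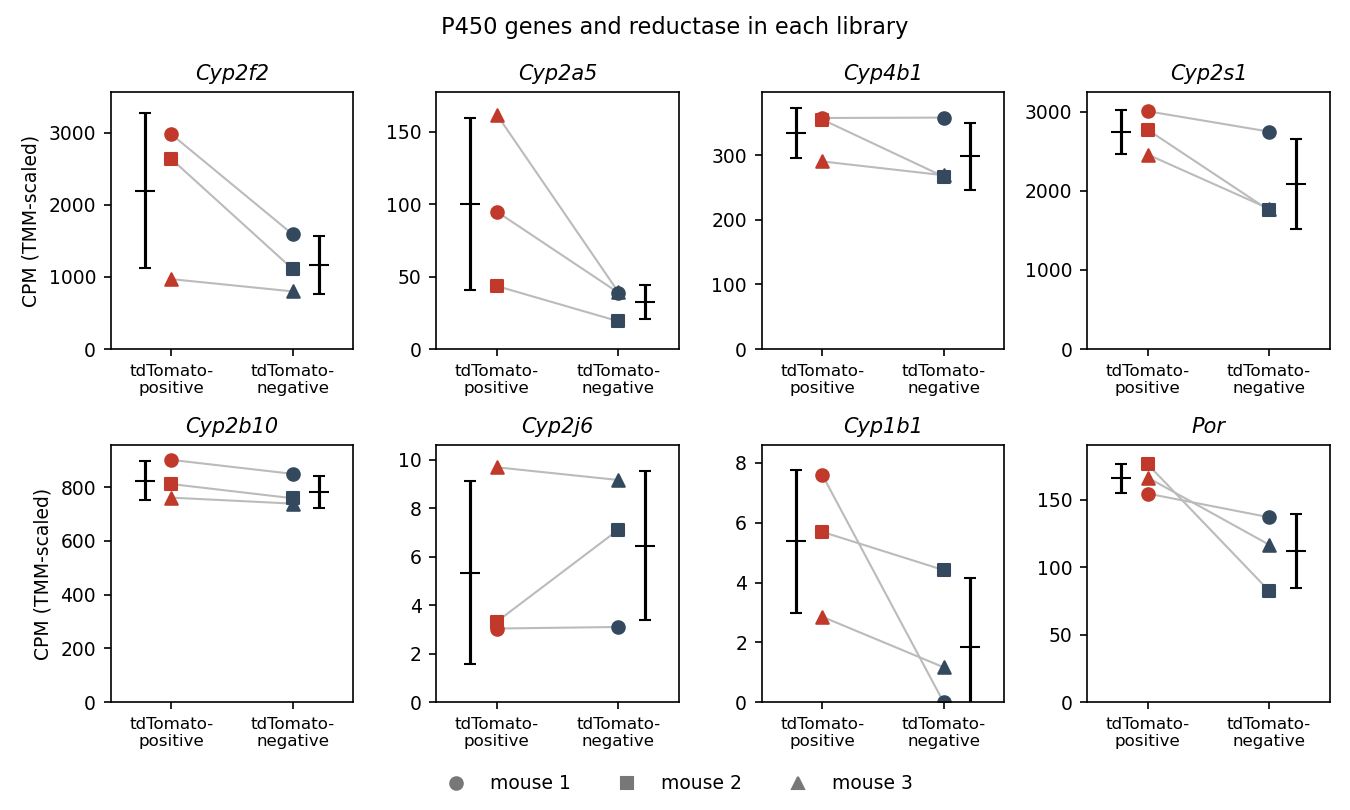
TMM-scaled CPM of 8 genes in each library, tdTomato-positive on the left of each panel and tdTomato-negative on the right; symbols are mice, grey lines join the libraries of a mouse, and bars show the mean and SD of 3 libraries (cut at 0 for Cyp1b1). All 3 lines slope the same way for Cyp2f2, Cyp2a5, Cyp2s1, Cyp2b10, Cyp1b1 and Por, and the groups are fully separate only for Cyp2a5 and Por.

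Cyp2f2, the naphthalene-activating enzyme, was at 2979.9, 2637 and 969.6 CPM in the tdTomato-positive libraries of mice 1, 2 and 3, against 1591, 1109 and 799 CPM in the tdTomato-negative ones. The groups overlapped, since the tdTomato-positive library of mouse 3 lay below the tdTomato-negative libraries of mice 1 and 2. Within each mouse, however, the tdTomato-positive library was higher, by 1.87-fold in mouse 1, 2.38-fold in mouse 2 and 1.21-fold in mouse 3. The log2 fold change was 0.91 ± 0.43 without the block (with SE; adjusted p by edgeR = 0.514) and 0.81 ± 0.16 with it (with SE; adjusted p by edgeR = 0.00745). The blocked call was lost without mouse 3 (log2 fold change 1.08, edgeR adjusted p = 0.0747), although mouse 3 had the smallest difference. Calls fell over all genes as well, since the blocked fit called 59 without mouse 3, against 415 with all 3 mice. An antisense gene, Gm15883, overlaps 274 exonic bases of Cyp2f2, and its own reads were 0.889% of those of Cyp2f2.

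Cyp2a5, the coumarin 7-hydroxylase, which also oxidises nicotine, had 562, 275 and 1020 reads in the tdTomato-positive libraries, or 94.9, 43.5 and 162 CPM in mice 1, 2 and 3. The tdTomato-negative libraries had 201, 100 and 203 reads, or 39.0, 19.2 and 39.6 CPM. All 3 tdTomato-positive values lay above all 3 tdTomato-negative ones. The fold within a mouse was 2.43, 2.27 and 4.09. Without the block the log2 fold change was 1.62 ± 0.48 (with SE; adjusted p by edgeR = 0.289), and with the block it was 1.51 ± 0.21 (with SE; adjusted p by edgeR = 0.000289). DESeq2 without the block called Cyp2a5 (adjusted p = 0.00585), as did edgeR with no filter on low counts (adjusted p = 0.000102) and without the tdTomato-positive library of mouse 2 (adjusted p = 0.0479, log2 fold change 1.98). Without mouse 3 the blocked call was lost (edgeR adjusted p = 0.134, log2 fold change 1.23), in the fit that called only 59 of all genes.

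Cyp2f2 and Cyp2a5 did not follow each other across animals. In tdTomato-positive libraries mouse 3 had the lowest Cyp2f2 and the highest Cyp2a5. Per kb of exon, Cyp2a5 stood at 0.0311, 0.0161 and 0.163 of the Cyp2f2 level in the tdTomato-positive libraries of mice 1, 2 and 3, and at 0.0239, 0.0169 and 0.0484 in the tdTomato-negative ones. Mouse 3 thus had the highest ratio in both fractions.

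Por, the electron donor, had 916, 1115 and 1049 reads in the tdTomato-positive libraries of mice 1, 2 and 3, or 155, 176 and 167 CPM. The tdTomato-negative libraries had 707, 430 and 599 reads, or 137, 82.6 and 117 CPM. The groups did not overlap, and the fold within a mouse was 1.13, 2.14 and 1.43. The log2 fold change of 0.56 ± 0.20 did not pass (with SE; adjusted p by edgeR = 0.332, and 0.0868 with the block). Por was called with the block once mouse 1 was left out (log2 fold change 0.78, edgeR adjusted p = 0.0086). Cyp2a5 and Por were thus the 2 of 8 tested members with complete separation in the higher direction, where 8.29% of all genes tested were separated in that direction. Per kb of exon, all P450 RNA together stood at 72.4, 57.3 and 39.0 times the Por level in the tdTomato-positive libraries of mice 1, 2 and 3, and at 58.7, 71.4 and 45.8 times in the tdTomato-negative ones. These ratios overlapped between the fractions and were lowest in mouse 3 in both.

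Cyp2s1, an extrahepatic P450 of airway and skin epithelium, was at 3006, 2772 and 2459 CPM in the tdTomato-positive libraries of mice 1, 2 and 3, against 2749, 1754 and 1774 CPM in the tdTomato-negative ones. It was higher within each mouse, by 1.09-fold, 1.58-fold and 1.39-fold, and the groups overlapped through the tdTomato-negative library of mouse 1. Its log2 fold change of 0.39 ± 0.20 did not pass (with SE; adjusted p by edgeR = 0.536, and 0.106 with the block).

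Cyp2b10, the phenobarbital-inducible enzyme of mouse liver, which lung transcribes without an inducer, was the steadiest of the 9 genes. It was at 901, 811 and 761 CPM in the tdTomato-positive libraries of mice 1, 2 and 3 and at 849, 759 and 739 CPM in the tdTomato-negative ones. The highest of the 6 libraries was 1.22 times the lowest, against 3.73 times for Cyp2f2 and 8.43 times for Cyp2a5. The fold within a mouse was 1.06, 1.07 and 1.03, and the log2 fold change 0.08 ± 0.15 (with SE; adjusted p by edgeR = 0.89).

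Cyp4b1, the activator of furan toxins, was at 358, 355 and 290.4 CPM in the tdTomato-positive libraries of mice 1, 2 and 3. In the tdTomato-negative libraries it was at 358, 267 and 269 CPM. Mice 2 and 3 had the higher value in the tdTomato-positive library and mouse 1 had equal values, with a log2 fold change of 0.17 ± 0.17 (with SE; adjusted p by edgeR = 0.769).

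The remaining P450 genes were scarce. Cyp2j6, of a subfamily known for oxidising arachidonic acid, had 18, 21 and 61 reads in the tdTomato-positive libraries of mice 1, 2 and 3, against 16, 37 and 47 in the tdTomato-negative ones. Its groups overlapped widely, and its log2 fold change of -0.27 ± 0.57 changed sign under 5 of 19 alternatives (with SE; adjusted p by edgeR = 0.897). Cyp1b1 had 45, 36 and 18 reads in the tdTomato-positive and 0, 23 and 6 in the tdTomato-negative libraries. Its log2 fold change of 1.52 ± 0.92 rests on these few reads and did not pass (with SE; adjusted p by edgeR = 0.587, and 0.283 with the block). Cyp1a1 had no read in the 3 tdTomato-positive libraries, 1 read in the tdTomato-negative library of mouse 3 and none in the other two, so its RNA was at or under the floor of 3 counts everywhere.

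**Figure D2:**
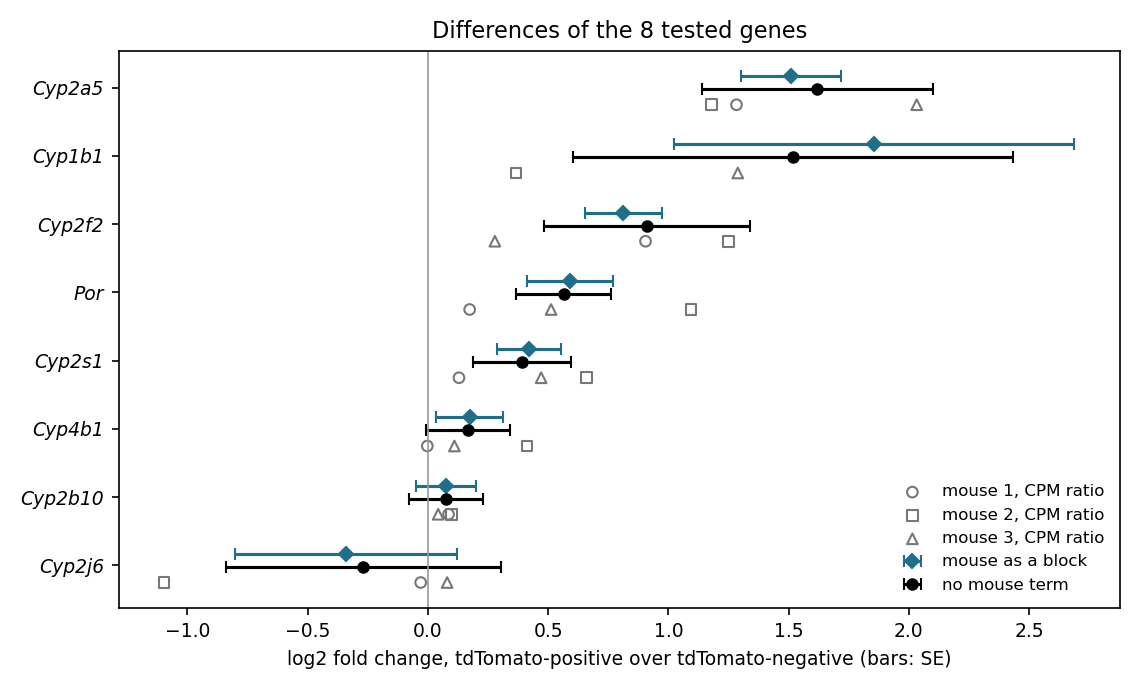
Log2 fold change (tdTomato-positive over tdTomato-negative) of the 8 tested genes with its SE, from edgeR with the mouse as a block (blue diamonds) and without (black circles); open symbols are the CPM ratios within each mouse on the log2 scale, with none for Cyp1b1 in mouse 1, where the tdTomato-negative library had no read. The block narrows the SE of Cyp2a5 from 0.48 to 0.21 and of Cyp2f2 from 0.43 to 0.16, with their estimates at 1.51 and 0.81.

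Levels of different genes were compared per kb of exon, over the union of annotated exons. In tdTomato-positive libraries the order was Cyp2f2 at 1084 ± 531, Cyp2s1 at 556 ± 55.6, Cyp2b10 at 390.4 ± 33.7, Cyp4b1 at 148 ± 16.9, Cyp2a5 at 48.3 ± 28.7, Por at 41.3 ± 2.70, Cyp2j6 at 1.48 ± 1.04 and Cyp1b1 at 0.922 ± 0.409 CPM per kb (SD, n = 3). In tdTomato-negative libraries the order was Cyp2f2 at 576 ± 197, Cyp2s1 at 424 ± 115, Cyp2b10 at 370.4 ± 27.9, Cyp4b1 at 132 ± 23.1, Por at 27.9 ± 6.86, Cyp2a5 at 15.7 ± 5.59, Cyp2j6 at 1.79 ± 0.855 and Cyp1b1 at 0.319 ± 0.392 CPM per kb (SD, n = 3). Cyp2f2 and Cyp2s1 were not separated in either group, since the ranges of their 3 libraries overlapped. Cyp2s1 and Cyp2b10 were separated in tdTomato-positive libraries, at 498 to 609 and 360.3 to 427 CPM per kb, and overlapped in tdTomato-negative ones. Cyp4b1 lay apart from its neighbours in both groups, and both Cyp2j6 with Cyp1b1 and Cyp2a5 with Por overlapped in tdTomato-positive libraries only, where Cyp2a5 spanned 21.0 to 78.1. With the longest transcript as the length, Cyp2s1 came before Cyp2f2 in tdTomato-negative libraries (662 against 625 CPM per kb), and Por came before Cyp2a5 in tdTomato-positive ones (62.9 against 49.7 CPM per kb).

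**Figure D3:**
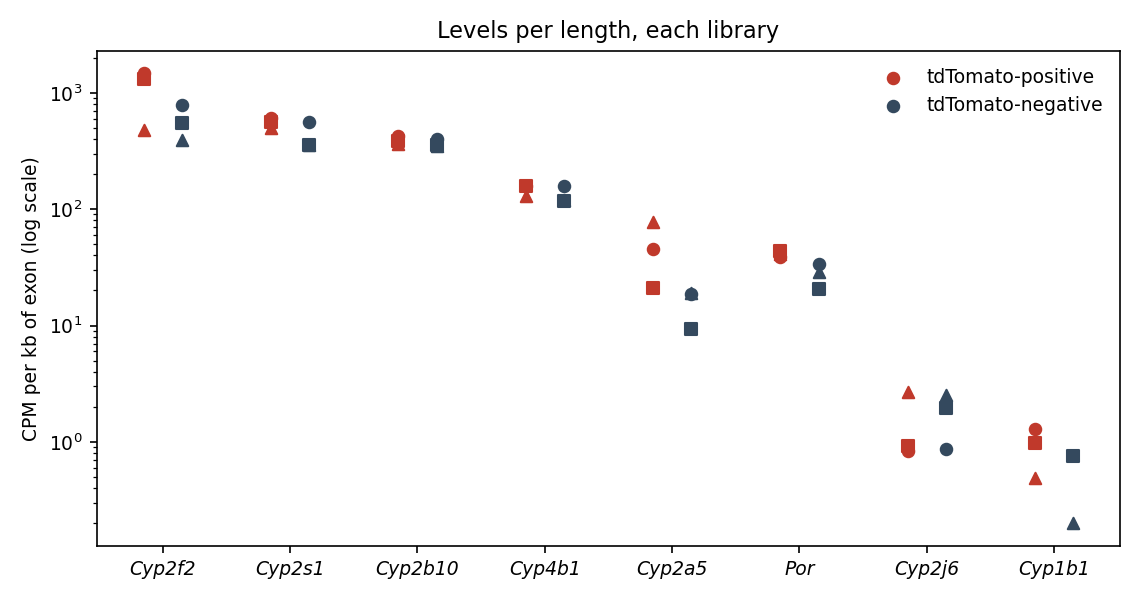
CPM per kb of exon (log scale) of 8 genes in each library, tdTomato-positive in red on the left of each gene and tdTomato-negative in dark blue on the right, with circles for mouse 1, squares for mouse 2 and triangles for mouse 3. Cyp2f2, Cyp2s1 and Cyp2b10 lie at 349.8 to 1472 in all libraries, and Cyp2j6 and Cyp1b1 lie below 3; a library without a read is not drawn.

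Per kb, Cyp2f2, Cyp2s1 and Cyp2b10 together made up 87.4% ± 4.05 of all P450 RNA in tdTomato-positive and 85.4% ± 2.15 in tdTomato-negative libraries (SD, n = 3 each). Cyp2f2 alone made up 52.8%, 51.8% and 29.6% in the tdTomato-positive libraries of mice 1, 2 and 3, against 39.3%, 37.4% and 29.7% in the tdTomato-negative ones. Mouse 3 thus had nearly the same Cyp2f2 share in both fractions, while mice 1 and 2 had the larger share in the tdTomato-positive one.

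Along the chromosome 7 cluster, abundant and nearly silent P450 genes lie side by side. Of its 16 genes and pseudogenes, 6 passed the filter on low counts: Cyp2s1, Cyp2b10, Cyp2a5 and Cyp2f2, and at far lower levels Cyp2b19, known from skin, and Cyp2g1, known from olfactory mucosa. Cyp2b19 averaged 6.84 ± 6.74 CPM in tdTomato-positive and 9.95 ± 1.17 CPM in tdTomato-negative libraries (SD, n = 3 each; edgeR adjusted p = 0.778). Cyp2g1, the gene next to Cyp2a5, averaged 6.76 ± 0.961 CPM in tdTomato-positive and 8.98 ± 3.52 CPM in tdTomato-negative libraries (SD, n = 3 each; edgeR adjusted p = 0.756). Cyp2t4, the gene next to Cyp2f2, had 55 reads over all 6 libraries, against 58494 for Cyp2f2.

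**Figure D4:**
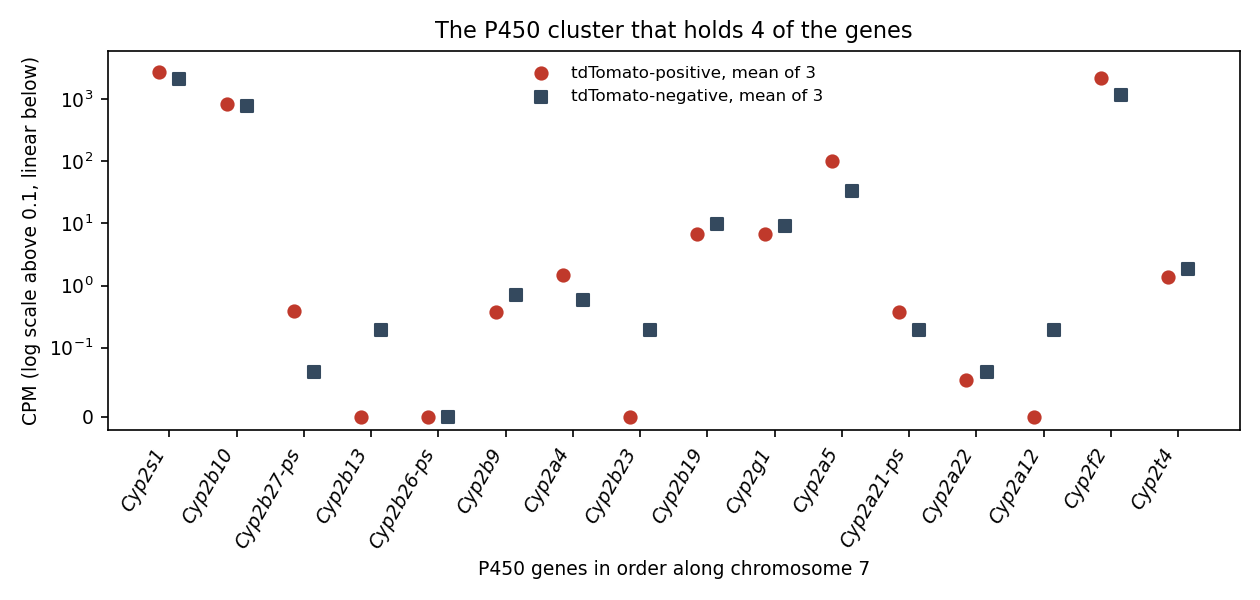
Mean CPM of 3 libraries per group for the 16 P450 genes and pseudogenes of the chromosome 7 cluster in map order (log scale above 0.1, linear below), tdTomato-positive as red circles and tdTomato-negative as dark blue squares. Cyp2s1, Cyp2b10 and Cyp2f2 stand at 782 CPM or more in both groups, Cyp2a5 at 100.1 and 32.6 CPM, and the other 12 below 10.

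Beyond these genes, the P450 family contributed little. Of 93 other P450 genes, 28 had no read in any library and 15 were tested. None of the 15 was called without the block by edgeR or DESeq2 (1 had an unadjusted edgeR p under 0.05, against 10.7% of all genes). Their median log2 fold change was -0.02, against 0.03 over all genes. With the block 1 of the 15 was called, where edgeR called 1.36% of all genes higher. This was Cyp4a12b, of the fatty acid hydroxylase subfamily, at 50, 210 and 2 reads in the tdTomato-positive libraries of mice 1, 2 and 3 against 17, 27 and 0 in the tdTomato-negative ones (log2 fold change 2.11, edgeR adjusted p = 0.0293). It has a close copy, Cyp4a12a, so its count is uncertain. The most abundant other P450 gene was Cyp4v3, at 52.6 ± 20.0 CPM in tdTomato-positive and 59.8 ± 9.47 CPM in tdTomato-negative libraries (SD, n = 3 each; edgeR adjusted p = 0.842).

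Genes that supply electrons and heme showed no call. Of 22 genes for cytochrome b5, its reductases, ferredoxin and heme synthesis and breakdown, all were tested and none was called by edgeR with or without the block, or by DESeq2. At an unadjusted p under 0.05, edgeR held 0 of them without the block and 2 with it, against 10.7% and 15.9% of all genes. Their median log2 fold change was 0.065, and 0.063 with the block. Alas1, the rate-limiting enzyme of heme synthesis, was the most abundant, at 553 ± 184 CPM in tdTomato-positive and 453 ± 160 CPM in tdTomato-negative libraries (SD, n = 3 each; edgeR adjusted p = 0.754).

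Among 17 receptors and regulators of drug-metabolising genes, 14 were tested, and 2 rose with the block, where 1.36% of all genes were called higher. Rxra, the shared partner of many nuclear receptors, was at 123 ± 14.5 CPM in tdTomato-positive and 63.8 ± 14.9 CPM in tdTomato-negative libraries (SD, n = 3 each), higher in 3 of 3 mice. Its log2 fold change was 0.95 without the block (edgeR adjusted p = 0.071, and called by DESeq2) and 0.97 with it (edgeR adjusted p = 0.00527). Hnf4a, a nuclear receptor of liver and gut, had 30, 38 and 258 reads in the tdTomato-positive libraries of mice 1, 2 and 3, against 7, 7 and 86 in the tdTomato-negative ones (blocked log2 fold change 1.67, edgeR adjusted p = 0.0201, against 0.745 without the block). Mouse 3 was highest in both fractions, as it was for Cyp2a5 in its tdTomato-positive library. Without the block edgeR called none of the 14, and DESeq2 called 1. Of the 14, 3 had an unadjusted edgeR p under 0.05, against 10.7% of all genes, and the median log2 fold change was 0.16. Nfe2l2, the oxidative stress factor NRF2, was the most abundant, at 676 ± 106 CPM in tdTomato-positive and 621 ± 89.5 CPM in tdTomato-negative libraries (SD, n = 3 each; edgeR adjusted p = 0.842). Of 30 other phase 1 and conjugating enzymes, 17 were tested, and none was called without the block by edgeR or DESeq2. At an unadjusted edgeR p under 0.05 there was 1, against 10.7% of all genes. Ces1d, a carboxylesterase, was the most abundant of these, at 450.3 ± 98.6 CPM in tdTomato-positive and 381 ± 41.1 CPM in tdTomato-negative libraries (SD, n = 3 each; edgeR adjusted p = 0.682).

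Markers of several cell types moved with the fractions, and their part in the P450 values was not tested. Of 14 club cell markers that are not P450 genes, 13 were tested, and all 13 had a log2 fold change above 0, against 52.7% of all genes. None was called without the block by edgeR or DESeq2, and 4 had an unadjusted edgeR p under 0.05, against 10.7% of all genes. With the block 6 rose, where 1.36% of all genes were called higher. The summed level of the 14 was 7679 to 20392 CPM in tdTomato-positive and 4113 to 7322 CPM in tdTomato-negative libraries, and none was at 0 in a group. This sum was lowest in mouse 3 in both fractions, as was Cyp2f2. Not every marker followed the sum. Aldh1a1 was highest in mouse 3 among tdTomato-positive libraries, at 2294 CPM against 2044 and 1395 CPM in mice 1 and 2. Scgb1a1, the major club cell secretoglobin, was at 12402, 13687 and 2240.2 CPM in the tdTomato-positive libraries of mice 1, 2 and 3 and at 1969, 3375 and 745 CPM in the tdTomato-negative ones. Its ratio of fitted levels was 4.65 (tdTomato-positive over tdTomato-negative), against 1.88 for Cyp2f2. Cyp2f2 CPM was 24.0%, 19.3% and 43.3% of Scgb1a1 CPM in the tdTomato-positive libraries and 80.8%, 32.9% and 107% in the tdTomato-negative ones.

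The 12 alveolar type 2 markers summed to 594 to 1162 CPM in tdTomato-positive and 6744 to 8118 CPM in tdTomato-negative libraries, none was at 0 in a group, and 7 were called lower without the block and 9 with it. The 12 multiciliated markers summed to 10151 to 11469 CPM in tdTomato-positive and 9562 to 9921 CPM in tdTomato-negative libraries. Of the 12, 9 had a log2 fold change above 0, against 52.7% of all genes. None of the 12 was called without the block, where 5 had an unadjusted edgeR p under 0.05, against 10.7% of all genes. DESeq2 called none. Among the 5 with an unadjusted edgeR p under 0.05, Dnah12 was lower in tdTomato-positive cells (log2 fold change -0.37, edgeR adjusted p = 0.423). Foxj1, Tppp3 and Cfap126 rose with the block, where 1.36% of all genes were called higher. Sec14l3, the most abundant of the 12, was at 4996 ± 662 CPM in tdTomato-positive and 4161 ± 232 CPM in tdTomato-negative libraries (SD, n = 3 each), so the labelled cell type had its markers in both. The 8 leukocyte markers summed to 30.01 to 64.1 CPM in tdTomato-positive and 62.8 to 188 CPM in tdTomato-negative libraries. Of 3 tested, edgeR called none without the block and Lcp1 and Ptprc lower with it, and DESeq2 called Lcp1. The 8 mesenchymal markers summed to 12.1 to 69.3 CPM in tdTomato-positive and 31.6 to 118 CPM in tdTomato-negative libraries, and the 6 endothelial ones to 9.69 to 27.7 CPM and 7.99 to 11.3 CPM, with Cldn5 at 0 in all 6. The 6 alveolar type 1 markers summed to 56.8 to 159 CPM in tdTomato-positive and 91.4 to 141 CPM in tdTomato-negative libraries, the 5 goblet markers to 0.159 to 95.4 CPM and 0 to 26.3 CPM, and the 5 basal markers to 1.01 to 2.06 CPM and 10.1 to 17.5 CPM, with Trp63 at 0 in all 3 tdTomato-positive libraries. Ager, an alveolar type 1 marker, was called lower by DESeq2 and by edgeR with the block only. Trp63 was called lower by DESeq2 and by edgeR with and without the block.

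**Figure D5:**
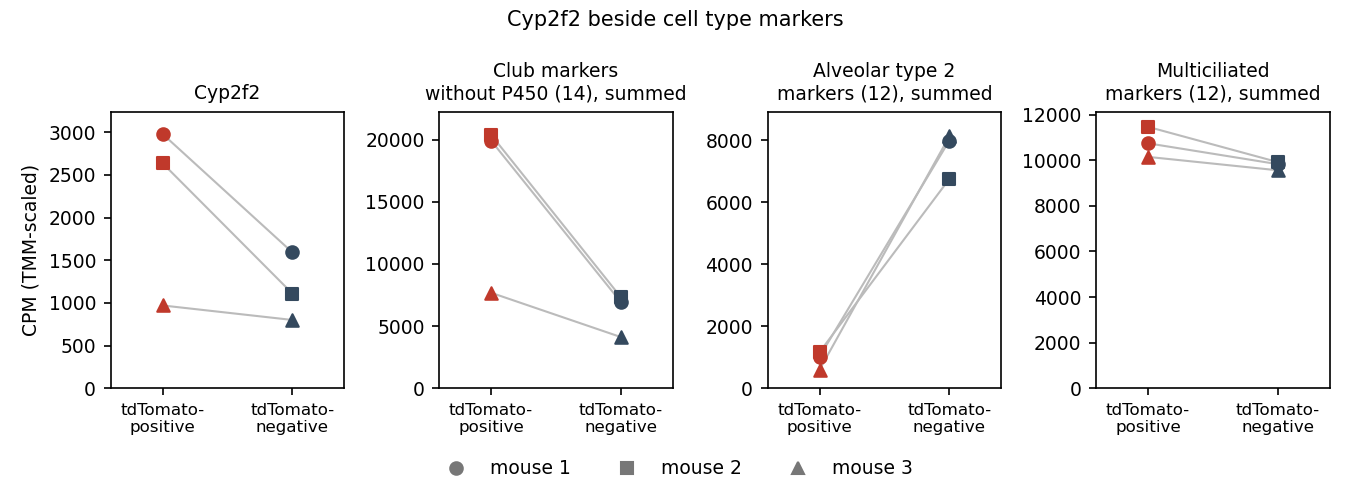
TMM-scaled CPM of Cyp2f2 and summed CPM of 3 marker lists in each library, tdTomato-positive on the left of each panel and tdTomato-negative on the right; symbols are mice and grey lines join the libraries of a mouse. Cyp2f2 and the summed club markers are both lowest in mouse 3 (969.6 and 7679 CPM in its tdTomato-positive library). The summed alveolar type 2 markers are higher in all tdTomato-negative libraries, and the summed multiciliated markers span 9562 to 11469 CPM.

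The profiles most like those of the leading genes were sought over the 6 libraries, which come in pairs from 3 mice. The measure was the root mean square difference of log2 CPM after each gene was centred on its own mean. It was taken among 4207 genes whose log2 CPM averaged 5 or more, with symbols of the Gm or Rik form left out. For Cyp2f2 the nearest were Reep6 (0.13), Lbh (0.19), Bcl9l (0.20), Hp (0.20), Spsb1 (0.24) and Sec14l1 (0.25). Of these, Sec14l1 was called with the block (log2 fold change 0.70, edgeR adjusted p = 0.00878). For Cyp2s1 the nearest were Pde4a (0.060), Erbb2 (0.063), Pltp (0.071), Odf3b (0.071), Ttll3 (0.073) and Tmem176b (0.084). Among the P450 genes and Por, Cyp4b1 was the nearest to Cyp2s1 (0.15, in place 82), followed by Por (0.21). Cyp2a5 stood far from both, at 1.14 and in place 4105 for Cyp2f2, and at 0.85 and in place 4119 for Cyp2s1. The measure is not scaled, so the size of a gene's changes counts as well as their direction. Cyp4b1, on chromosome 4, was thus nearer to Cyp2s1 than was Cyp2b10, its neighbour on chromosome 7 (0.23).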

How the data were processed

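The deposited files hold raw read counts per gene symbol from HTSeq, 1 library per file, with no normalization by the authors. Per the submitters' processing notes, the tools were cutadapt 1.7.1, FastQC, STAR 2.4.2a, DESeq2 and HTSeq, with the builds GRCm38.p4 and mm10. No source used here gives the strand setting of the counting. Where antisense genes overlap exons of Cyp2f2 and Cyp2s1, reads of the 2 strands therefore cannot be told apart. RNA was amplified without molecular identifiers, so floors and errors of counts cover counting error only. The 5 summary rows were left out; reads in no gene, ambiguous reads and multiply aligned reads held 41.0% to 49.4%, 1.31% to 1.99% and 8.26% to 12.0% of all rows.

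From the counts, TMM-scaled CPM, p-values and the log2 fold change of tdTomato-positive over tdTomato-negative cells with its SE were computed with edgeR 4.0.16 in R 4.3.3 (filterByExpr, count minimum 10; glmQLFTest, two-sided). SE was the log2 fold change divided by the square root of F. The main model had no mouse term. The labels pair the libraries by animal, and the 2 libraries of an animal deviated together from the group means (correlation 0.263, 0.254 and 0.346). A second model therefore took the mouse as replicate block, and its value is given where it changes the call of a member. Both were tested on simulated data. DESeq2 1.42.0, other normalizations and filters, and leaving out libraries or mice were alternatives.

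All 9 genes are named. From each other list that is not of cell type markers, the genes called and the most abundant one are named. From the marker lists only some of the genes called are named. For the other phase 1 and conjugating enzymes, the blocked result is not reported here. The members, lists and alternatives were chosen with earlier results of these data known. Positions, exons and transcripts are from GENCODE M21 (GRCm38), and promoters from RefSeq (GRCm38.p6), which held all 9 genes.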

Additional observations from a re-analysis of the deposited data

How the results depend on the processing

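Of the 8 members tested, 0 were called without the replicate block, 1 with DESeq2 or with no filter on low counts (Cyp2a5 in each), and 2 with the replicate block in edgeR or in DESeq2 (Cyp2f2 and Cyp2a5). When 1 library or 1 mouse was left out, with or without the block, the count was 0 to 3. Over all 13175 genes tested, 82 were called, against 245 with DESeq2, 415 with the replicate block and 464 with DESeq2 and the block. With no filter 413 were called, over a larger set of 28108 genes tested. When a library or a mouse was left out without the block, 22 to 113 were called. With the block, 633, 380 and 59 were called when mouse 1, 2 or 3 was left out. The fits that left out a library or a mouse tested 13309 to 13856 genes. The split was 6 higher and 76 lower with TMM factors, and 22 higher and 54 lower with library size only, and the scaling moved the median over all genes tested to 0.29, against 0.03 (log2). Beside that median, Cyp2b10 stood at 0.33 and Cyp4b1 at 0.41 with library size only. Cyp2j6 ranged down to -1.02, without the tdTomato-positive library of mouse 3, and changed sign to 0.0097 with library size only, 0.014 without the tdTomato-positive library of mouse 1, 0.066 without the tdTomato-negative library of mouse 3, 0.059 without mouse 2 and 0.033 without mouse 2 with the block; the cause was not tested. The other 7 tested members kept the sign of their log2 fold change in all 19 alternatives. Depth limits Cyp1b1 most among the tested members, with 0 to 45 reads per library.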
